A study of Mus musculus with 12 samples.

Results

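The matrix proteases and their inhibitors were taken as every gene with a single symbol on the array that is named as a matrix metalloproteinase (*Mmp*), a tissue inhibitor of metalloproteinases (*Timp*), a disintegrin and metalloproteinase (*Adam*), or an ADAM with thrombospondin motifs or a protein like one (*Adamts* and *Adamtsl*). *Timp4* was left out of the set by the same rule. There were 81 such genes, read by 87 probe sets, among 22180 genes with a single symbol: 22 *Mmp*, 3 *Timp*, 33 *Adam* and 23 *Adamts* and *Adamtsl* genes. Expression was measured in the inguinal white adipose tissue (WAT) of 12 male mice of 12 weeks. The 6 R6/2 mice carry a transgene with exon 1 of the mutant human huntingtin gene, and the 6 wild type (WT) mice were their littermates. Both were bred on the C57BL/6 background and were housed and fed alike. The R6/2 line expresses only a fragment of huntingtin, beside the mouse's own gene, and the array does not separate the cell types of the fat pad. Each mouse gave 1 Affymetrix Mouse Gene 2.0 ST array, whose values are on the log2 scale, so that a difference of 1 is a change of 2-fold.

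Fat cells sit in a mesh of collagens, laminins and proteoglycans that has to be cut and rebuilt as the tissue grows or shrinks. MMPs are secreted or membrane-anchored zinc proteases that cut collagens, elastin and other matrix proteins, and TIMPs block them by filling the active site. ADAMs are mostly membrane proteins that release the outer parts of other membrane proteins, and ADAMTS proteases are secreted enzymes that cut proteoglycans, procollagens and a few other targets. The ADAMTS-like proteins share their matrix-binding parts but have no protease domain.

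Several *Mmp* genes lie side by side on chromosome 9, and the sequences before their start sites are shown here because *Mmp12* and *Mmp3*, on which the results for the MMP class turn, lie among them. The AP-1 element TGAGTCA, which binds Fos and Jun proteins, is a textbook feature of stromelysin and collagenase promoters. It was searched on both strands in the 250 bases before the start sites that RefSeq gives for mouse build GRCm38.p6, a table that held 50 of the 81 genes. In the 120 bases printed, 5′ to 3′ on the plus strand and ending at the base before the start, capitals mark the AP-1 element (TGAGTCA, or TGACTCA where it lies on the other strand) and the TATA box letters TATAAA. *Mmp12*, with the widest spread, and *Mmp3* were above the level limit described below, and *Mmp10* and *Mmp13* were not. *Mmp12* has 2 annotated starts, and the window of the second is shown, since the first held neither motif in its last 120 bases.
Mmp12, chr9:7347254-7347373: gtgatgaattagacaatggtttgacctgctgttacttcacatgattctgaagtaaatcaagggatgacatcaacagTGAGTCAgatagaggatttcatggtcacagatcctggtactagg
Mmp3, chr9:7445702-7445821: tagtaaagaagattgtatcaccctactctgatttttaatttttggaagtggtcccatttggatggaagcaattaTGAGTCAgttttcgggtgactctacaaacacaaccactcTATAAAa
Mmp10, chr9:7502222-7502341: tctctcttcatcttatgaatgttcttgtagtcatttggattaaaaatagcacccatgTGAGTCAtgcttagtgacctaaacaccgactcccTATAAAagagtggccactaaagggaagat
Mmp13, chr9:7272394-7272513: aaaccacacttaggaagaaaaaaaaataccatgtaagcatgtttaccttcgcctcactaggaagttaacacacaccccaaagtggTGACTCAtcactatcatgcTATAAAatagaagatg

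The AP-1 letters lay 44 bases before the start in *Mmp12*, 46 in *Mmp3*, 63 in *Mmp10* and 35 in *Mmp13*. Across the 50 genes with a sequence, 9 (18%) held TGAGTCA on either strand, against 5.16% of 27025 genes in the table. Apart from *Adam19* and *Adam29*, the 9 were genes of the chromosome 9 cluster: *Mmp1a*, *Mmp1b*, *Mmp3*, *Mmp7*, *Mmp10*, *Mmp12* and *Mmp13*. The cyclic AMP response element TGACGTCA was in 0 of the 50, against 1.77% of all genes. The SP1 box GGGCGG, on either strand, was in 22 (44%, against 35.4%), and TATAAA on the gene's own strand was in 11 (22%, against 8.94%). Of the 50, 31 were above the level limit. Among these 31, the AP-1 letters were in 4 (12.9%), the SP1 box in 19 (61.3%) and TATAAA in 4 (12.9%). These are matches of letters and were not tested as binding sites.

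Not every one of these genes gave a usable signal in inguinal WAT. The level limit was the median over unannotated probe sets (5.45 for WT, 5.44 for R6/2 mice), which stood in for the negative control probes of the study's methods, and a gene was kept if its mean exceeded the limit in at least 1 genotype. Of the 81 genes, 49 were kept and 32 were not. *Mmp7* passed through the R6/2 mice alone and *Adamts8* through the WT mice alone. The share kept differed by class, with 14 of 22 *Mmp*, 2 of 3 *Timp*, 13 of 33 *Adam* and 20 of 23 *Adamts* and *Adamtsl* genes. All 4 secreted collagenase genes of the MMP class (*Mmp1a*, *Mmp1b*, *Mmp8* and *Mmp13*) were under the limit, with genotype means between 2.36 and 4.76. So were *Mmp10*, *Mmp16*, *Mmp20* and *Mmp21*. *Adamts3*, *Adamts18* and *Adamts19* were the 3 *Adamts* genes under it. Of the 10 cluster genes, in the order *Mmp13*, *Mmp12*, *Mmp1b*, *Mmp3*, *Mmp1a*, *Mmp10*, *Mmp8*, *Mmp27*, *Mmp20* and *Mmp7* along chromosome 9, only *Mmp12*, *Mmp3*, *Mmp27* and *Mmp7* were kept. Most *Adam* genes under the limit, such as *Adam2*, *Adam3*, *Adam7* and *Adam18*, are best known from the male reproductive tract.

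In R6/2 inguinal WAT, *Mmp12* and *Adamts5* were lower than in WT, and no gene of the set passed the test in the other direction. *Mmp12*, the macrophage elastase, fell by 2.30 on the log2 scale, 4.94-fold between the means, and *Adamts5*, which cuts the proteoglycans aggrecan and versican, fell by 1.05, a 2.07-fold difference. Both had a q of 5% or less in the significance analysis of microarrays (SAM), where 83 of 14550 genes (0.57%) were lower and 3 (0.0206%) were higher. The count for the set was 2 of 49 (4.08%) lower and 0 higher. At a q of 10% or less it was again 2 lower, against 0.976% of all genes. By limma, no gene of the 49 and no gene of all 14550 (0%) passed an adjusted p of 0.05. At an unadjusted limma p under 0.05, 6 of 49 (12.2%) were lower, against 3.31% of all genes, and 0 were higher, against 2.53%. The 4 others were *Mmp3*, *Mmp23*, *Adam9* and *Adam15*. No kept gene had every R6/2 mouse below every WT mouse, against 0.186% of all genes, and none had every R6/2 mouse above, against 0.199%. A lower mean in R6/2 mice, without a test, was seen for 31 of 49 (63.3%), against 45.8% of all genes. The median difference was −0.06 over the 49 and 0.01 over all genes.

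**Figure D1:**
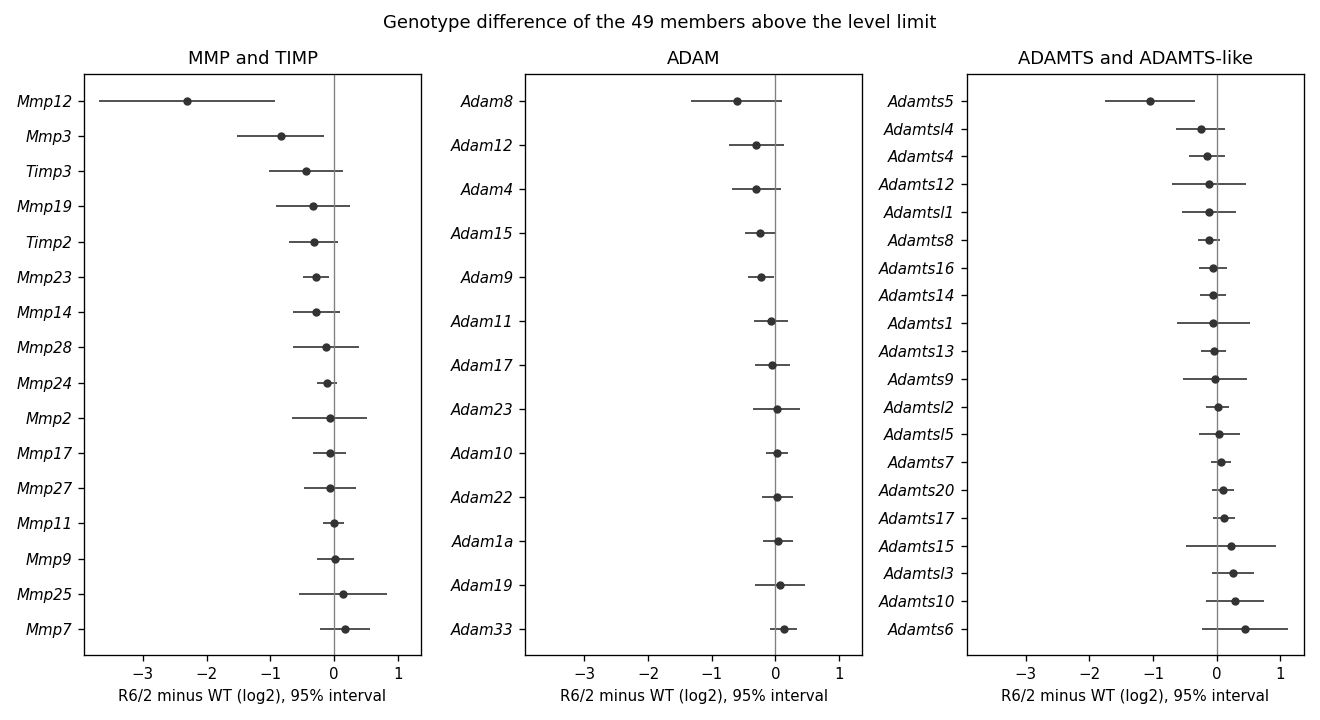
Difference between R6/2 and WT inguinal WAT (x axis, log2 units, R6/2 minus WT) for each of the 49 genes above the level limit, drawn as points with 95% intervals from limma, 6 mice per genotype. The points of *Mmp12* at −2.30 and *Adamts5* at −1.05 lie farthest to the left, and the intervals of 43 genes include 0.

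*Mmp12* had the widest spread of the set, with an SD of 1.68 over the 12 mice. In WT mice 1 to 6 its log2 signal was 6.47, 10.57, 7.14, 9.10, 6.98 and 8.32. In R6/2 mice 1 to 6 it was 5.26, 5.88, 5.38, 7.27, 5.15 and 5.82. The groups overlapped through R6/2 mouse 4 alone, which lay above WT mice 1, 3 and 5, and the other 5 R6/2 mice were below every WT mouse. R6/2 mice 1, 3 and 5 were under the level limit of 5.44, so that the fold rests in part on signals at background. The means were 8.10 ± 1.55 in WT and 5.79 ± 0.78 in R6/2 mice (SD, n = 6 each), a difference of −2.30 (SE 0.64, limma adjusted p = 0.601, SAM q = 2.62%). The exact permutation test on this gene alone gave p = 0.00866, two-sided, where 0.00216 is the smallest that 6 against 6 mice allow.

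*Mmp12* is made mainly by macrophages, and macrophage markers were lower in the same R6/2 mice. All 24 of 24 macrophage marker genes were above the level limit and had a lower mean in R6/2 mice, against 45.8% of all genes, with a median difference of −0.45. By SAM 2 of them, *Itgam* (−0.81) and *Cd68* (−0.999), had a q of 5% or less, against 0.57% of all genes. The mean of the 24 ranged from 7.31 to 8.18 in WT and from 6.87 to 7.85 in R6/2 mice (two-sided exact permutation p = 0.0325, n = 6 each). The 3 WT mice with the highest *Mmp12*, mice 2, 4 and 6, were those with the highest macrophage means, 8.08, 8.14 and 8.18. R6/2 mice did not follow the same order, since mouse 2 had the highest macrophage mean of that genotype, 7.85, and an *Mmp12* signal of 5.88, and mouse 4 had 7.41 and 7.27. With the macrophage mean in the model, the *Mmp12* difference was −1.28 (SE 0.68, limma adjusted p = 0.979). In a bulk sample, fewer macrophages and less *Mmp12* RNA in each macrophage cannot be told apart.

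**Figure D2:**
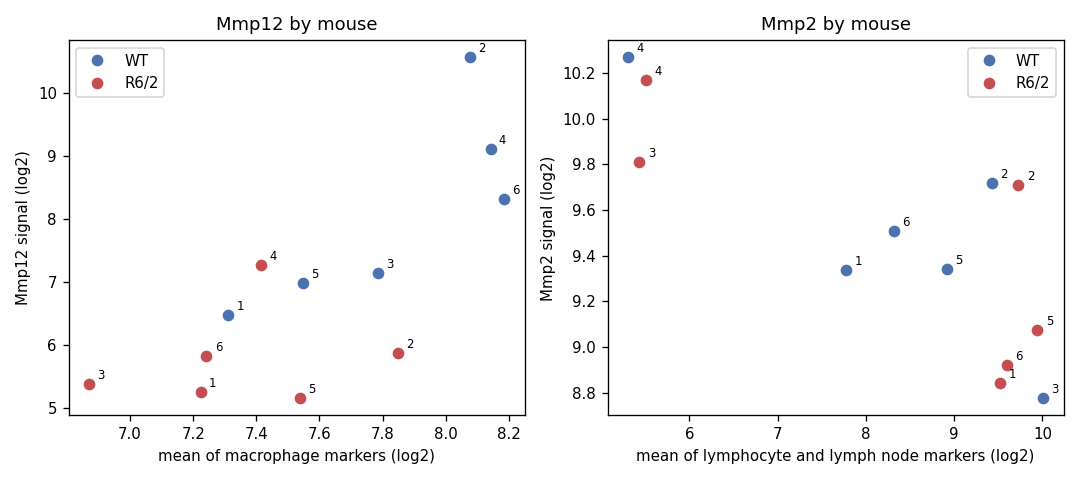
Log2 signal of *Mmp12* against the mean of 24 macrophage markers (left) and of *Mmp2* against the mean of 15 lymphocyte and lymph node markers (right), both axes in log2 units, 1 numbered point per mouse, 6 WT in blue and 6 R6/2 in red. WT mice 2, 4 and 6 lie at the upper right of the left panel, and the 3 mice with few lymphocyte markers, WT 4, R6/2 3 and R6/2 4, have the 3 highest *Mmp2* signals.

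*Mmp3*, stromelysin-1, a protease of broad specificity that also activates other MMPs, had signals of 7.18, 7.33, 7.004, 8.86, 7.56 and 7.67 in WT mice and 6.19, 7.02, 6.98, 7.58, 6.58 and 6.25 in R6/2 mice. The highest value in each genotype was that of mouse 4, and 4 R6/2 mice lay below every WT mouse. The difference was −0.83 (SE 0.31), 1.78-fold, with a limma adjusted p of 0.787 and a SAM q of 11.9%. *Mmp3* did not pass SAM with all mice, but it did without R6/2 mouse 4 (−0.997, q = 1.68%). Without that mouse 2.83% of all genes were lower by SAM, against 0.57% with all mice. Over 21 SAM alternatives, which include leaving out each mouse, *Mmp3* had a q of 5% or less in 2, with a highest q of 38.9%.

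*Mmp23*, which encodes a membrane-bound protease that is shed from the cell, differed by less but with little spread. Its signals ran from 6.499 to 7.04 in WT mice, with a median of 6.75, and from 6.26 to 6.66 in R6/2 mice, with a median of 6.46. Of the R6/2 mice, 4 were below every WT mouse, and the difference of −0.28 (SE 0.10) had a limma adjusted p of 0.72 and a SAM q of 15.6%.

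**Figure D3:**
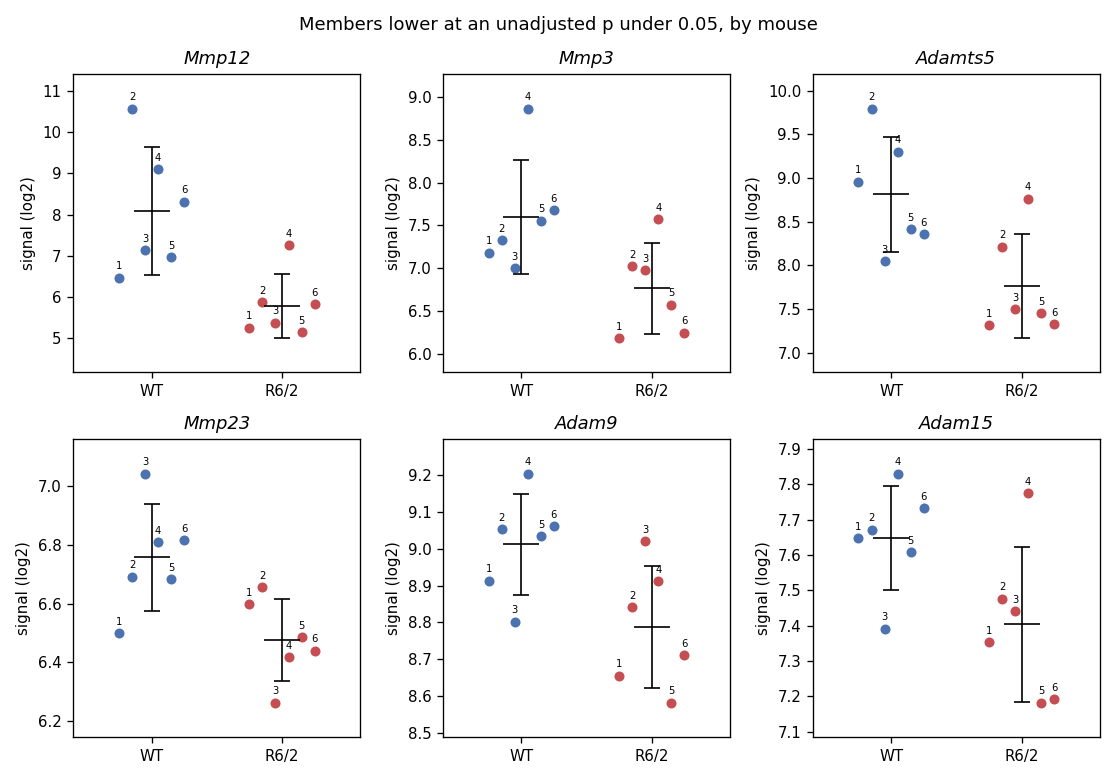
Log2 signal (y axis) of the 6 genes lower in R6/2 mice at an unadjusted limma p under 0.05, with 1 numbered point per mouse, 6 WT in blue and 6 R6/2 in red; the long bar is the mean and the whiskers are the SD. In *Mmp12*, *Mmp3*, *Adamts5* and *Adam15* the highest R6/2 point is mouse 4.

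The gelatinases, which cut basement membrane collagen and denatured collagen, had differences near 0. *Mmp2* (gelatinase A) had means of 9.49 ± 0.49 in WT and 9.42 ± 0.55 in R6/2 mice (SD, n = 6 each), a difference of −0.07 with a 95% interval of −0.67 to 0.52, which leaves room for differences of that size in either direction. *Mmp9* (gelatinase B) had 6.24 ± 0.15 and 6.26 ± 0.30, a difference of 0.02 (95% interval −0.26 to 0.31). *Mmp14*, the membrane-anchored collagenase that activates pro-MMP2, had 9.26 ± 0.27 and 8.98 ± 0.34, and its interval of −0.64 to 0.09 included 0. The sign for *Mmp9* turned under reweighted arrays (−0.15) and without the 3 mice with few lymphocyte markers (−0.16), and that for *Mmp2* turned with the macrophage mean in the model (0.14).

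Of the 14 *Mmp* genes kept, 11 had a lower mean in R6/2 mice, with a median difference of −0.09. The matrilysin *Mmp7* had the smallest p among those with a higher mean (0.18, SE 0.18, limma adjusted p = 0.938). However, *Mmp7* was kept through the R6/2 mice alone, where its mean was higher, and its other probe set, under the limit, gave −0.02. Another stromelysin, *Mmp11*, had the difference nearest to 0 of the MMP class, −0.0056, and its 2 probe sets gave −0.04 and 0.03. *Mmp25*, a membrane-anchored MMP of leukocytes, had a higher mean (0.14, SE 0.32) and signals from 5.77 to 7.05 in WT and from 5.49 to 7.12 in R6/2 mice, which overlapped over nearly the whole range. *Mmp19*, *Mmp24*, *Mmp28*, *Mmp17* and *Mmp27* had differences from −0.33 to −0.06, each with an interval that included 0.

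Of the inhibitors, *Timp2* and *Timp3* were above the level limit and *Timp1* was not. *Timp2*, which inhibits MMPs and together with MMP14 activates pro-MMP2, had signals of 8.80, 9.61, 8.99, 9.60, 8.88 and 9.31 in WT mice and 8.53, 9.20, 8.88, 9.27, 8.73 and 8.65 in R6/2 mice. The groups overlapped, and the difference of −0.32 (SE 0.18, limma adjusted p = 0.874) turned to 0.01 with the macrophage mean in the model. *Timp3*, which binds to the matrix and inhibits MMPs as well as ADAM17 and the ADAMTS proteoglycanases, had 10.29, 10.16, 9.58, 10.60, 9.94 and 10.49 in WT mice. In R6/2 mice 1 to 6 the *Timp3* signals were 9.29, 9.83, 9.81, 10.86, 9.55 and 9.11. R6/2 mouse 4 had the highest *Timp3* signal of all 12 mice, and 3 R6/2 mice were below every WT mouse. The difference of −0.44 (95% interval −1.02 to 0.15) had a SAM q of 52.6% with all mice and of 1.92% without R6/2 mouse 4, when it was −0.66.

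*Timp1*, a secreted inhibitor of most MMPs, gave signals of 5.03, 5.05, 5.12, 5.50, 4.92 and 5.30 in WT mice and 4.48, 4.62, 4.68, 4.77, 4.47 and 4.62 in R6/2 mice. All 6 R6/2 mice were below every WT mouse, as for 0.162% of all 22180 genes. Since both genotype means, 5.15 ± 0.21 and 4.61 ± 0.12 (SD, n = 6 each), were under the level limit, no fold is given. When all 22180 genes were tested without the limit, *Timp1* was the only one of the 81 genes with a SAM q of 5% or less (q = 0%, limma adjusted p = 0.303), against 0.104% of all genes, and *Mmp12* and *Adamts5* had 8.35% and 13%. *Timp4*, outside the set, was lower in R6/2 mice by SAM (8.195 and 6.48, difference −1.71, SE 0.33, q = 0%).

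**Figure D4:**
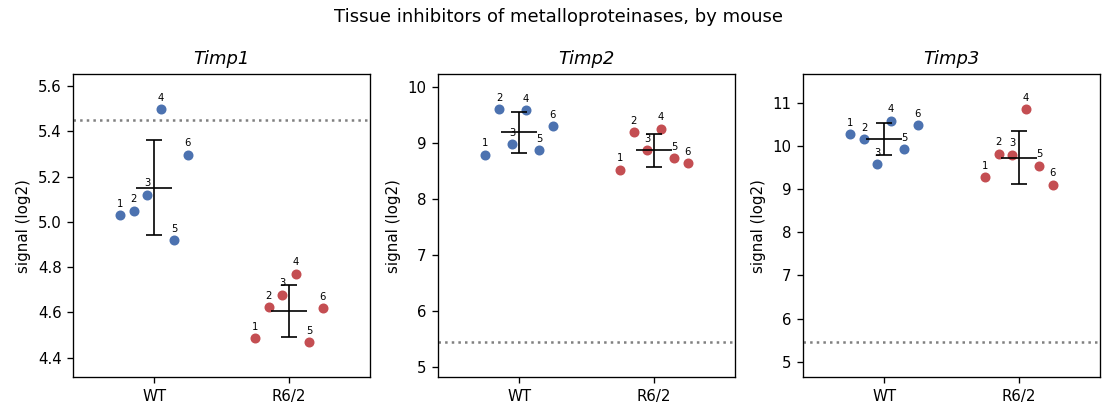
Log2 signal (y axis) of the 3 *Timp* genes of the set, with 1 numbered point per mouse, 6 WT in blue and 6 R6/2 in red; the long bar is the mean, the whiskers are the SD and the dotted line is the WT level limit of 5.45. *Timp1* lies mostly under the limit with no overlap between the genotypes, and *Timp2* and *Timp3* lie above it and overlap.

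Among the ADAMs, 7 of the 13 genes kept had a lower mean in R6/2 mice, the median difference was −0.05 and none had a SAM q of 5% or less. *Adam9* and *Adam15*, membrane proteases of many cell types that release growth factors and receptors in culture, had the smallest p. *Adam9* ran from 8.80 to 9.20 in WT mice (median 9.04) and from 8.58 to 9.02 in R6/2 mice (median 8.77), and every R6/2 mouse was below the WT median. Its difference was −0.23 (SE 0.09, limma adjusted p = 0.819, SAM q = 29%). *Adam15* ran from 7.39 to 7.83 (median 7.66) and from 7.18 to 7.78 (median 7.40), with a difference of −0.24 (SE 0.11, limma adjusted p = 0.839, SAM q = 33.3%). Its 2 probe sets differed in size, with −0.08 and −0.40.

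*Adam8*, a protease of leukocytes, had the largest difference among the ADAMs and also the largest spread. In WT mice 1 to 6 it was 5.84, 7.07, 6.96, 6.63, 6.01 and 7.12, and in R6/2 mice 6.63, 6.46, 5.11, 5.23, 6.62 and 5.94. The low R6/2 values were those of mice 3 and 4, and the groups overlapped. The difference of −0.61 (SE 0.33, limma adjusted p = 0.874) was 0.02 with the macrophage mean in the model.

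The 2 main sheddases showed no difference of this size. *Adam10*, which cuts Notch receptors, had means of 9.48 ± 0.11 and 9.51 ± 0.13 (SD, n = 6 each) and a 95% interval for the difference of −0.14 to 0.20. *Adam17*, which releases TNF and EGF receptor ligands, had 8.35 ± 0.23 and 8.30 ± 0.22, with an interval of −0.32 to 0.23. The sign of its small difference, −0.05, turned under several settings, to at most 0.05. *Adam33* had the smallest p among the ADAMs with a higher mean (0.13, SE 0.10, limma adjusted p = 0.904). *Adam12*, which is made in muscle and fat precursors and has a role in adipogenesis in mice, had −0.30 (SE 0.20). *Adam11*, *Adam22* and *Adam23*, which lack a catalytic site and are best known from nerve cells, had −0.07, 0.03 and 0.02.

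Of the 20 *Adamts* and *Adamtsl* genes kept, *Adamts5* stood alone in passing SAM; 11 had a lower mean in R6/2 mice, with a median difference of −0.04, and the median of the 5 *Adamtsl* genes was 0.01. Its signals were 8.96, 9.79, 8.05, 9.30, 8.41 and 8.35 in WT mice 1 to 6. In R6/2 mice 1 to 6 they were 7.32, 8.21, 7.50, 8.76, 7.46 and 7.33. R6/2 mice 2 and 4 lay within the WT range and the other 4 below it. The means were 8.81 ± 0.66 and 7.76 ± 0.59 (SD, n = 6 each), a difference of −1.05 (SE 0.33, limma adjusted p = 0.632, SAM q = 4.52%), and the two-sided exact permutation test on this gene alone gave p = 0.0173. With the macrophage mean in the model the difference was −0.73 (limma adjusted p = 0.979).

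The other proteoglycanases had smaller differences. *Adamts1* had means of 7.35 ± 0.50 and 7.29 ± 0.51 and *Adamts4* of 5.61 ± 0.16 and 5.45 ± 0.29 (SD, n = 6 each), differences of −0.05 (95% interval −0.63 to 0.53) and −0.16 (−0.44 to 0.13). *Adamts8*, *Adamts9*, *Adamts15* and *Adamts20* had −0.12, −0.02, 0.22 and 0.10. Of these, *Adamts8* was kept through the WT mice alone, where its mean was higher, and its other probe set, under the limit, gave 0.19. The interval of *Adamts5*, −1.76 to −0.34, overlapped that of *Adamts1*, and the difference between these genes was not tested. *Adamts6* and *Adamts10*, linked to fibrillin microfibrils, had higher means in R6/2 mice by 0.45 (SE 0.31) and 0.29 (SE 0.21). Their 95% intervals, −0.23 to 1.13 and −0.16 to 0.74, included 0 (limma adjusted p = 0.892 and 0.897). Of the ADAMTS-like genes, *Adamtsl3* had the smallest p in this direction, with 0.26 (SE 0.15, limma adjusted p = 0.874). The procollagen N-propeptidase *Adamts14*, the cartilage matrix protein-cutting *Adamts7* and *Adamts12*, and *Adamts13*, which cuts von Willebrand factor, had differences between −0.13 and 0.07.

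Neither call was kept through every removal of 1 mouse. Leaving out 1 mouse at a time, the number of genes of the set lower by SAM ran from 0 to 6. *Mmp12* lost its call without WT 4 (q = 10.9%), WT 6 (6.67%), R6/2 1 (8.16%), R6/2 2 (5.8%), R6/2 3 (7.73%), R6/2 5 (9.28%) or R6/2 6 (9.76%). *Adamts5* lost its call without each of these 7 mice (5.8% to 18%) and also without WT 1 (8.81%), WT 2 (14.5%) or WT 5 (5.61%). Over all genes, the number lower by SAM also fell, from 83 to between 15 and 27, without each of the 7 mice and to 25 without WT 2, and was 83 without WT 1 and 81 without WT 5. The direction of both genes was the same each time, from −2.63 to −1.81 for *Mmp12* and from −1.25 to −0.85 for *Adamts5*. Without R6/2 mouse 4, 6 of 49 genes were lower by SAM, against 2.83% of all genes: *Mmp12*, *Adamts5*, *Mmp3*, *Timp3*, *Adam15* (−0.32, q = 2.96%) and *Adam4* (−0.43, q = 4.73%). At an unadjusted limma p under 0.05, 11 of 49 genes were lower without this mouse, against 6.34% of all genes. When limma weighted the arrays by their quality, 15 of 49 were lower, against 9.71%, among them *Timp2* (−0.38), *Timp3* (−0.69) and *Mmp14* (−0.42), with limma adjusted p of 0.26, 0.13 and 0.171.

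The mice also differed in a feature other than genotype. The mean of 15 lymphocyte and lymph node markers was between 5.31 and 5.51 in WT 4, R6/2 3 and R6/2 4 and between 7.78 and 10.01 in the other 9 mice, and did not separate the genotypes (8.29 in both). With genotype in the model, 8 of the 49 genes were higher and 17 were lower with this mean at a limma adjusted p under 0.05, against 19.1% and 22.6% of all genes. The genes higher in mice with more of these markers included *Mmp25* (slope 0.28, SE 0.04), *Adamts6* (0.28, SE 0.04), *Adam8* (0.22, SE 0.07) and *Adam17* (0.11, SE 0.02), in log2 units per unit of the mean. Those lower included *Adamts15* (−0.27, SE 0.05), *Mmp3* (−0.24, SE 0.06), *Adamts12* (−0.24, SE 0.03), *Mmp2* (−0.21, SE 0.05) and *Timp3* (−0.20, SE 0.05). *Mmp12* (−0.16, SE 0.17) and *Adamts5* (−0.13, SE 0.08) were not among them. Within the 9 mice, *Mmp25*, *Adamts6*, *Adamts10*, *Adam17* and *Adam19* were still higher and *Adamts1*, *Adamts9*, *Mmp19* and *Mmp28* still lower, 5 and 4 of 49, against 15% and 12% of all genes.

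**Figure D5:**
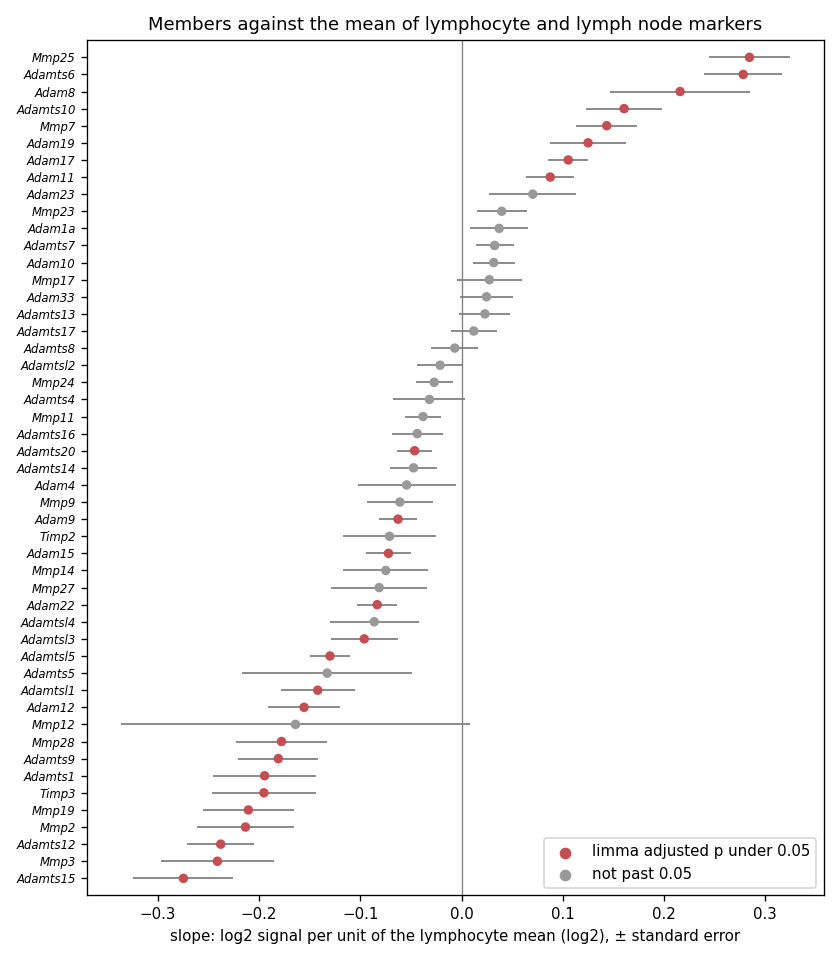
Slope of each of the 49 genes on the mean of 15 lymphocyte and lymph node markers (x axis, log2 signal per log2 unit of the mean, with genotype in the model, 12 mice; bars are standard errors). Red points, 8 to the right of 0 and 17 to the left, have a limma adjusted p under 0.05.

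Without the 3 mice with few lymphocyte markers, 5 of the 48 genes then kept were lower by SAM (against 1.89% of all genes): *Mmp12* (−2.37, q = 3.53%), *Adamts5* (−1.14, q = 3.98%), *Mmp3* (−0.84, q = 1.75%), *Timp3* (−0.65, q = 4.79%) and *Adam4* (−0.58, q = 2.1%). At an unadjusted limma p under 0.05, 10 of the 48 were lower, against 6.47% of all genes. With the lymphocyte mean in the model in all 12 mice, the *Mmp3* difference stayed at −0.84 and its SE was 0.20 (limma adjusted p = 0.135). Adipocyte, fibroblast and endothelial markers had overlapping means in WT and R6/2 mice (11.45 and 11.23, 7.85 and 7.75, 8.58 and 8.54, two-sided exact permutation p = 0.208, 0.348 and 0.812). A lower mean in R6/2 mice was seen for 12 of 13, 10 of 13 and 7 of 10 of these genes, against 45.8% of all genes. With the mature adipocyte mean, 16 of the 49 genes were higher and 6 lower at a limma adjusted p under 0.05 (all genes 19.4% and 18.9%), and with the endothelial mean 13 and 5 (all genes 17% and 15.6%). The 16 included *Adamts5* (slope 1.38, SE 0.49, limma adjusted p = 0.0431), *Mmp3* (1.38, SE 0.45) and *Timp3* (1.41, SE 0.31), but not *Mmp12* (1.59, SE 1.13). Within 10 mice, without those of the most extreme adipocyte means, *Adamts5* had 1.85 (SE 0.93, limma adjusted p = 0.207). The mature adipocyte mean was highest in mouse 4 of each genotype, 11.72 in WT and 11.68 in R6/2, both among the mice with few lymphocyte markers. Skeletal muscle markers had higher means in R6/2 mice for 18 of 18 genes, against 7881 of all 14550 genes. None of the 18 had an unadjusted limma p under 0.05. The list means ran from 5.64 to 10.37 in WT and from 5.62 to 10.52 in R6/2 mice (two-sided exact permutation p = 0.316). With the muscle mean in the model, *Mmp12* had −1.95 and *Adamts5* −0.93. No gene of the 49 had a slope past the threshold on the macrophage mean, where 0.0206% of all genes were higher and 0% lower, on the muscle mean (0.997% and 0.0344%) or on the fibroblast mean (0% in both directions).

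The proteins around these proteases were read from lists of genes put together for this purpose. Of 42 regulators of matrix proteolysis, 34 were measured; 8 were lower and 1 (*Papln*, an ADAMTS-related matrix protein, 0.30) was higher at an unadjusted limma p under 0.05 (all genes 3.31% lower and 2.53% higher), the median difference was −0.22 and none had a SAM q of 5% or less. They included *Plau*, the urokinase that activates plasminogen (−0.39, SE 0.12), *Htra3*, a secreted serine protease (−0.65, SE 0.24), *Ctsb*, the lysosomal cathepsin B (−0.24, SE 0.09), and *Thsd4*, an ADAMTS-like protein under another name (−0.22, SE 0.09). Of 38 matrix proteins that these enzymes cut, 31 were measured, and 13 were lower and 0 higher at that threshold, against the same 3.31% and 2.53% of all genes, with a median of −0.45 and none with a SAM q of 5% or less. The smallest p were those of elastin (*Eln*, −0.41, SE 0.13), a substrate of MMP12, and of collagen genes *Col4a2* (−0.54, SE 0.18), *Col4a1* (−0.65, SE 0.22) and *Col3a1* (−0.76, SE 0.27). *Vcan*, versican, a substrate of ADAMTS5, had −0.82 (SE 0.30). Since genes of these mice vary together, the counts alone do not test a list. The mean of the 31 matrix protein genes ran from 8.08 to 9.10 in WT and from 7.78 to 8.73 in the transgenic mice. These ranges overlapped, and the exact permutation test on this mean gave p = 0.0801. The mean of the 34 regulators ran from 7.95 to 8.32 and from 7.76 to 8.12 (exact permutation p = 0.0325).

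For the partners and targets of the ADAMs, the counts at this threshold are also to be read against 3.31% of all genes lower and 2.53% higher. Of 13 measured partner genes (tetraspanins, iRhoms and integrins), 1, the ADAM10-binding tetraspanin *Tspan5* (−0.26, SE 0.10), was lower at an unadjusted limma p under 0.05 and 0 were higher, with a median of −0.03. Of 24 proteins that ADAMs cut or release, 19 were measured, with a median of −0.06. At the same threshold 1 of them, the TNF receptor *Tnfrsf1a* (−0.34, SE 0.14), was lower and 0 were higher. No gene of either list had a SAM q of 5% or less.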

How the data were processed

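Total RNA from inguinal WAT of 6 R6/2 and 6 WT mice was hybridised to 1 array per mouse. RMA normalization of all arrays by the authors (Affymetrix Expression Console 1.1.2, per the submitters' processing notes) gave the deposited log2 values, 1 for each probe set. They are unfiltered, and the merging of probe sets and the level filter follow the study's methods, except that the filter's limit was the median of probe sets without a symbol in place of that of negative control probes, which were not used here. Probe sets were named through the platform annotation (23521 of 41345 with 1 symbol, 1820 with several, 16004 with none), and only those with 1 symbol were tested. The level filter kept 15328 probe sets and 14550 genes; 595 genes with several probe sets were reduced to their median signal per array.

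SAM, the study's test, was permuted over all 924 ways to place 6 of 12 mice in a group. Its constant s0, 0.0482, was read from the denominators in the study's own SAM output, the estimated unchanged share was 0.971, and genes were called at a q of 5% or less. Differences, standard errors and Benjamini-Hochberg adjusted p over all genes came from limma 3.58.1 (lmFit and eBayes, no covariates) in R 4.3.3. Both were run on simulated data in which each gene was drawn on its own. Since genes of these mice vary together, that run cannot show how the SAM q or limma adjusted p behave here. Single genes and list means had two-sided exact permutation tests. The number of mice limits the precision; array medians were between 5.75 and 5.87. No scan date was given in the sources used here. Nothing states that same-numbered mice were paired.

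The genes named are every *Timp*, 8 well-known proteases, every gene with an unadjusted limma p under 0.05 or a SAM q of 5% or less, the smallest p per class and direction, and the 5 with the largest SD over the 12 arrays; others are named to account for their class. In each list up to 4 genes of smallest p are named, and *Vcan* and *Papln* were added after their values were seen. The members and lists were chosen with earlier results of these data known. Also tried were other filters, probe set rules, scalings, array weights, variance models, covariates, a replicate block and leaving out each mouse; leaving out the 3 mice with few lymphocyte markers was chosen after seeing the data. Marker lists for neutrophils (3 of 11 above the limit), mast cells (5 of 9), epithelium (3 of 8), nerve (4 of 8) and smooth muscle (8 of 8) had 0 genes past an unadjusted limma p of 0.05 in either direction, lymphocyte (15 of 18) and fibroblast (13 of 15) lists had 0, and endothelial (10 of 10) 1 higher; mature adipocyte (13 of 15) had 2 lower, of which *Lep* (−1.26) passed SAM. Probe sets of several symbols were left out. RefSeq sequences of GRCm38.p6 and plots were handled in Python 3.11.15 with pandas 2.3.3 and matplotlib 3.10.9.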

Additional observations from a re-analysis of the deposited data

Results flagged for a closer look

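In 3 of 40 genotype groups tested (20 named genes in 2 genotypes), 1 mouse lay apart from the other 5 of its genotype by Dixon's criterion, the gap to its nearest value divided by the range of the group. Chance alone gives about 1 such group in 20. *Mmp12* in R6/2 mouse 4 was 7.27, with the next value at 5.88 (ratio 0.657). *Mmp3* in WT mouse 4 was 8.86, with the next value at 7.67 (ratio 0.639). *Adam33* in R6/2 mouse 2 was 6.94, with the next value at 6.60 (ratio 0.633). WT mouse 4 and R6/2 mouse 4 are 2 of the 3 mice with few lymphocyte markers. On the lymphocyte mean, the slope of *Mmp3* was −0.24 in 12 mice (limma adjusted p = 0.00507) and −0.09 in the 9 others (0.73). That of *Mmp12* was −0.16 in 12 mice (limma adjusted p = 0.461). Whether few lymphocyte markers account for the values that lay apart was not tested.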

How the results depend on the processing

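The medians of the 4 classes moved by less than the spread between mice under every alternative, and no gene of the set passed a limma adjusted p of 0.05 or was higher by SAM under any. Those of ADAM (−0.093 to 0.040) and ADAMTS (−0.074 to 0.044) changed sign between alternatives. Those of MMP (−0.18 to −0.037) and TIMP (−0.53 to −0.12) did not. The number lower by SAM, 2 with all mice, was 1 without the level filter (*Timp1*), 1 with each array centred on its median (*Mmp12*), 5 without the 3 mice with few lymphocyte markers and 0 to 6 without 1 mouse; over all genes it was 83, against 23, 61, 272 and 15 to 411. The number lower at an unadjusted limma p under 0.05, 6 (482 of all genes), was 15 with array weights (1413, with 46 past an adjusted p of 0.05), 3 with a change of 1.5-fold required (127), 0 with the macrophage mean in the model (209), 10 without the 3 mice (931) and 4 to 11 without 1 mouse (298 to 922; 11 without R6/2 4). The number higher, 0 (368 of all genes), was 3 with array weights (1366), 3 with the lymphocyte mean in the model (836), 2 without the 3 mice (555) and 0 to 2 without 1 mouse (2 without WT 3 or R6/2 3 and 1 without R6/2 6; all genes 281 to 549). The number with every R6/2 mouse below every WT mouse, 0 (27 of all genes), was 1 without the filter (36), 2 without the 3 mice (306) and 0 to 1 without 1 mouse (1 without WT 1 or R6/2 4; all genes 31 to 147). Except where fewer genes or mice were tested by construction, the cause was not tested.

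Some differences near 0 changed sign. That of *Adam17* did so with array weights (0.052), with the macrophage mean (0.040) and without the 3 mice (0.035). That of *Mmp9* did likewise (−0.15, −0.0054 and −0.16). With the macrophage mean, *Mmp2* turned to 0.14 and *Adamts4*, at −0.16 without it, to 0.059. The larger differences of *Adam8* (−0.61) and *Timp2* (−0.32) also turned with the macrophage mean, to 0.016 and 0.0071. Without 1 mouse the differences ran from −0.0067 to 0.065 for *Adam10*, −0.10 to 0.030 for *Adam17*, −0.21 to 0.086 for *Adamts1*, −0.22 to 0.084 for *Mmp2* and −0.072 to 0.11 for *Mmp9*. Over 21 SAM alternatives *Mmp12* had a q of 5% or less in 13 and *Adamts5* in 9, with highest q of 10.9% and 18%.

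Mice of the same number deviated together for numbers 2 and 4 (correlations of 0.63 and 0.78) but not for the others (−0.78 to 0.07). These correlations cannot show whether the numbers mark litters or batches. Since nothing states that they mark pairs, the numbers were not taken as such. With the replicate block, the set had 5 genes lower at an unadjusted limma p under 0.05, against 6; all genes had 756 past it in either direction, against 850, and 2 past an adjusted p of 0.05, against 0. *Mmp12* and *Adamts5* had limma adjusted p of 0.399 and 0.344 with the block. Their SE were 0.42 and 0.17 with it, against 0.64 and 0.33 without it.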
